A study of Rattus norvegicus with 20 samples.

Results

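Genes regulated by PPAR-alpha and genes of fatty acid oxidation were examined in liver from male rats of the Harlan Sprague-Dawley strain given tricresyl phosphate (TCP), an organophosphate ester used as a flame retardant and plasticizer. The set was defined by gene name as 36 members in 7 groups: Cyp4a hydroxylases, peroxisomal enzymes, the carnitine shuttle, mitochondrial beta-oxidation, the electron transfer flavoprotein, fatty acid uptake, activation and thioesterases, and other PPAR-alpha targets. Of these, 35 were measured, among 14217 genes in all, each represented by the probe set of highest mean. Acaa1a, a peroxisomal thiolase, had only a probe set shared with another gene and is given no value. Control rats (n = 5) were gavaged with the vehicle, corn oil, and treated rats (n = 3 per dose) with TCP at 62.3, 124.5, 248.6, 497.3 or 994.6 mg/kg in that oil, as 4 daily doses, and the liver was taken the day after the last dose. All groups, controls included, thus received the oil, itself a source of fatty acids. The labels give no age, and they assign separate rats to each group.

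PPAR-alpha is a nuclear receptor that is activated by fatty acids and by fibrate drugs. It pairs with the retinoid X receptor and binds a direct repeat of the hexamer AGGTCA with a single base between the copies, called DR1. In rodent liver its activation is known to induce microsomal Cyp4a omega-hydroxylases, peroxisomal and mitochondrial beta-oxidation enzymes, the carnitine shuttle, and fatty acid transport and thioesterase genes, and in fasting it is known to raise Fgf21, Pdk4 and Angptl4.

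The values were log2 expression values made with RMA, in which 1 unit is a doubling, and levels of different probe sets were not compared with each other. Array medians ran from 6.31 to 6.41. One array stood apart: replicate 1 of 994.6 mg/kg scored 37.1 on the first principal component over all genes (20.1% of the variance), where no other array left the range -14.1 to 9.14. Calls at that dose are therefore given with and without it. In that array 16 of the 35 members lay below the lowest control, against 6 and 7 in replicates 2 and 3. That count was not made over all genes. The deviations of all genes from their control means were also wider in it, with an SD of 0.41, against 0.24 and 0.27. The GAPDH control transcript has probe sets at its 3' and 5' ends, and their log2 difference, a sign of RNA quality or amplification, averaged 0.72 ± 0.11 at 994.6 mg/kg and 1.37 ± 0.18 in control (SD, n = 3 and 5). It lay at 0.612 to 1.11 in 14 of the 15 treated arrays, at 2.58 in replicate 2 of 124.5 mg/kg, and at 1.13 to 1.56 in control. Its part in the results was not tested beyond a fit with it as a covariate, given beside the results at the highest dose. Control arrays and 14 of the 15 treated arrays did not overlap in this difference. That fit therefore cannot tell it apart from treatment, and a call lost in it does not show which of them changed the gene. In whole liver, fewer cells of a type and less RNA per cell cannot be told apart.

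Each dose was compared with control to ask which members changed and in which direction. A gene was called at a limma adjusted p under 0.05, adjusted over all genes. No member was called with limma at 62.3 mg/kg, where 0% of all genes were called, and 0 members had an unadjusted p under 0.05, against 2.45% of all genes. At 124.5 mg/kg 0 members were called, against 0.00703% of all genes, and 8 of 35 had an unadjusted p under 0.05, against 5.04% of all genes. At 248.6 mg/kg 0 were called, against 0.0563% of all genes, and 5 had an unadjusted p under 0.05, against 6.65% of all genes. At 497.3 mg/kg 1 member was called, the thioesterase Acot2, higher, against 0.732% of all genes in either direction and 0.513% called higher, and 11 members had an unadjusted p under 0.05, against 12.2% of all genes. At 994.6 mg/kg 7 of the 35 members (20%) were called, against 4.47% of all genes, and 14 had an unadjusted p under 0.05, against 18.6% of all genes. The 4 higher members were Cyp4a8, Cd36, Acot2 and Etfa, where 2.50% of all genes were called higher, and the 3 lower members were Cyp4a1, Crat and Acsl1, where 1.96% were called lower. Without replicate 1 of 994.6 mg/kg 1 member was called, Acot2 (2.86% of members), against 1.22% of all genes. With the GAPDH difference as a covariate 1 member was called, again Acot2, against 3.17% of all genes. Leaving out any one of the control replicates left 1 to 4 members and 378 to 514 of all genes called.

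**Figure D1:**
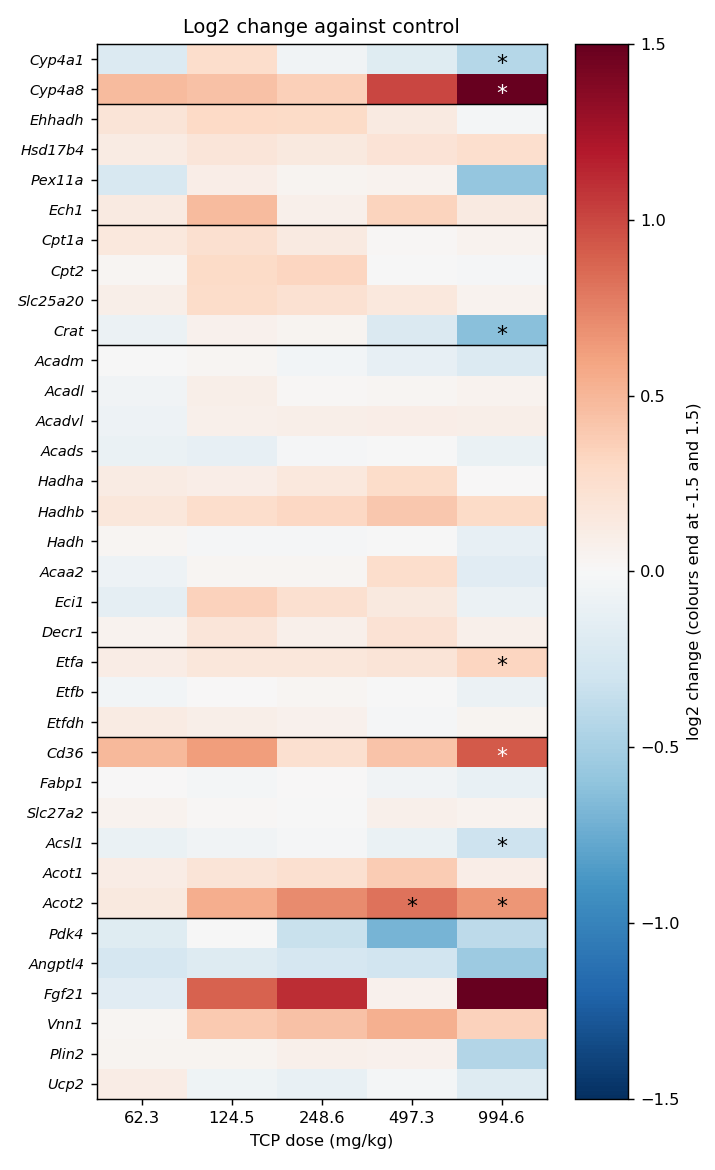
Log2 change of each of the 35 members (rows, in their 7 groups) against control at each TCP dose (columns, mg/kg). Red is higher and blue lower than control, colours end at 1.5 in either direction, and stars mark genes called by limma. The stars are 1 at 497.3 mg/kg and 7 at 994.6 mg/kg, in both directions.

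The Cyp4a hydroxylases, which oxidize the far end of fatty acids in the endoplasmic reticulum, moved in opposite directions. Cyp4a8 had log2 values of 8.60, 7.18 and 7.38 at 994.6 mg/kg, against 6.52, 6.29, 5.97, 6.51 and 5.82 in control. All 3 arrays of the dose lay above all controls, and replicate 1 was the highest of all 20 arrays. At the lower doses the arrays held 5.81, 6.94 and 7.36 (62.3 mg/kg), 7.01, 6.77 and 6.21 (124.5 mg/kg), 6.04, 6.66 and 7.04 (248.6 mg/kg), and 7.32, 8.06 and 6.29 (497.3 mg/kg). Each of these groups overlapped the controls, and in each at least 1 array lay among or below them. The change at 994.6 mg/kg was 1.50 ± 0.39 (SE, limma adjusted p = 0.034), a 2.83-fold increase, and the slope per dose step was 0.26 ± 0.07 (adjusted p = 0.0207). A second Cyp4a8 probe set rose by 1.25 ± 0.30 (adjusted p = 0.0242 over all probe sets). The call at 994.6 mg/kg ended without replicate 1 of the dose (1.06, adjusted p = 0.266), without control replicate 1, 2, 3 or 5, and separately in the fits with the GAPDH covariate (1.57, adjusted p = 0.0712) and with robust eBayes. The change lay between 1.05 and 1.77 in these and the other settings tried. The call by trend ended without replicate 1 of 994.6 mg/kg (adjusted p = 0.0761), and separately in the fit with the GAPDH covariate.

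Cyp4a1, the classic clofibrate-induced member of the family, had 11.14, 11.41 and 11.74 at 994.6 mg/kg, against 11.85, 11.97, 11.90, 11.60 and 11.96 in control. Replicates 1 and 2 of the dose lay below all controls and replicate 3 lay among them, so the groups overlapped. The change was -0.43 ± 0.12 (SE, limma adjusted p = 0.0437). At 124.5 mg/kg the arrays held 12.24, 12.12 and 11.99, all above the controls, with a difference of 0.26 that was not called (adjusted p = 0.94). At 62.3, 248.6 and 497.3 mg/kg the arrays ran from 11.50 to 11.86. The slope per dose step was -0.06 ± 0.03 (adjusted p = 0.17). The call at 994.6 mg/kg ended without replicate 1 (-0.28, adjusted p = 0.315) or 2 of the dose, without control replicate 1, 2, 3 or 5, and separately in the fit with the GAPDH covariate (-0.42, adjusted p = 0.0998), and the change lay between -0.58 and -0.28 in all settings tried.

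**Figure D2:**
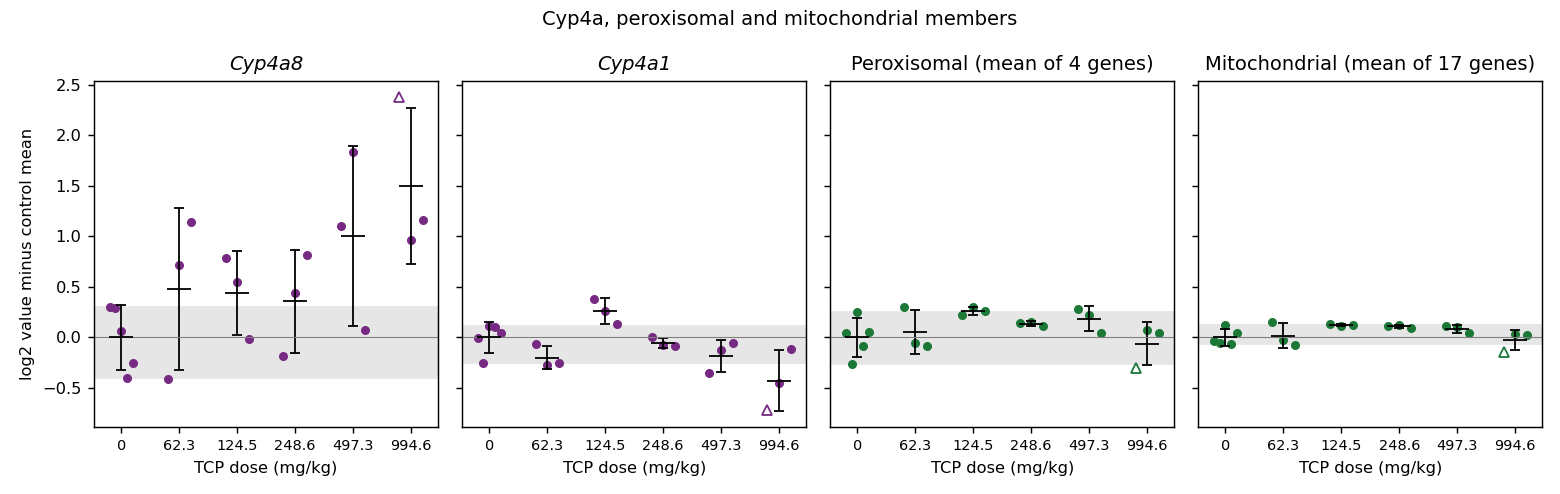
Log2 value minus the control mean by TCP dose (mg/kg), for Cyp4a8, for Cyp4a1, for the mean of the 4 peroxisomal members and for the mean of the 17 mitochondrial members. Points are arrays, the open triangle is replicate 1 of 994.6 mg/kg, bars are mean ± SD and the grey band is the control range. At 994.6 mg/kg Cyp4a8 lies above its band in all arrays, while the peroxisomal and mitochondrial means lie within theirs in replicates 2 and 3 and below in replicate 1.

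None of the 4 measured peroxisomal members was called by limma at 994.6 mg/kg, and 2 had an unadjusted p under 0.05, as had 18.6% of all genes. Ehhadh, the bifunctional enzyme of the inducible peroxisomal pathway and a textbook PPAR-alpha target, had 11.66, 11.59 and 11.82 at 994.6 mg/kg, against 11.79, 11.95, 11.96, 11.13 and 11.79 in control. The groups overlapped, and the difference was -0.03 ± 0.15 (adjusted p = 0.94). Pex11a, which drives peroxisome division and is PPAR-alpha inducible in rodents, had 8.23, 8.94 and 8.80, against 9.45, 9.61, 9.07, 9.06 and 9.01 in control. All arrays of the dose lay below all controls, but the difference of -0.58 ± 0.19 was not called (adjusted p = 0.0915), and without replicate 1 it was -0.37 (adjusted p = 0.496). A second Pex11a probe set differed by -0.03 ± 0.24 at this dose (limma adjusted p = 0.965 over all probe sets). Ech1, a dienoyl-CoA isomerase of peroxisomes and mitochondria, had 10.86 in replicate 1 and 11.70 and 11.47 in replicates 2 and 3, against 11.03 to 11.48 in control.

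Hsd17b4, the D-bifunctional protein of peroxisomal beta-oxidation, was called by the dose trend, with a slope of 0.05 ± 0.01 per dose step (limma adjusted p = 0.0476). Its arrays held 12.37, 12.42 and 12.44 at 994.6 mg/kg, all above the controls at 12.19, 12.33, 12.20, 11.93 and 12.17. At the lower doses they held 12.41, 12.24 and 12.20 (62.3 mg/kg), 12.44, 12.35 and 12.25 (124.5 mg/kg), 12.36, 12.35 and 12.24 (248.6 mg/kg), and 12.45, 12.37 and 12.29 (497.3 mg/kg). Each lower dose overlapped the controls. The call by trend was kept in 6 of the 20 fits that left out 1 array, and was lost without control replicate 1, 3, 4 or 5 and without 10 of the treated arrays in turn (adjusted p up to 0.10).

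The carnitine shuttle carries fatty acids across the mitochondrial membranes. Of its 4 members 1 was called at 994.6 mg/kg, against 4.47% of all genes. Crat, carnitine acetyltransferase, had 8.59, 9.68 and 9.61 at 994.6 mg/kg, against 10.03, 9.98, 9.87, 9.91 and 9.83 in control. All arrays of the dose lay below all controls, with replicate 1 about 1 unit below the others. Crat fell by 0.63 ± 0.17 (SE, limma adjusted p = 0.0437). At 497.3 mg/kg its arrays held 9.55, 9.67 and 9.91, and those of the 3 lower doses ran from 9.73 to 10.18. The call ended without replicate 1 of the dose (-0.27, adjusted p = 0.268), without any of the 5 control replicates in turn, and separately in the fit with the GAPDH covariate (-0.49, adjusted p = 0.16). Cpt1a, the liver carnitine palmitoyltransferase that sets the rate of mitochondrial entry, had 12.04, 12.47 and 12.05 at 994.6 mg/kg, against 12.14, 12.48, 12.29, 12.08 and 11.64 in control. These overlapped, with a difference of 0.06 ± 0.16 (adjusted p = 0.90). Cpt2 and the carnitine-acylcarnitine carrier Slc25a20 differed by -0.02 and 0.06 and were not called.

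The 10 enzymes of the mitochondrial beta-oxidation spiral lay between -0.20 (Acadm) and 0.29 (Hadhb) at 994.6 mg/kg, with 5 above and 5 below 0 and 0 called by limma, and 2 had an unadjusted p under 0.05, as had 18.6% of all genes. Hadhb, the thiolase subunit of the trifunctional protein, had 12.57, 12.70 and 12.75 at 994.6 mg/kg, against 12.31, 12.67, 12.36, 12.33 and 12.27 in control. The lower doses held 12.80, 12.51 and 12.34 (62.3 mg/kg), 12.79, 12.45 and 12.71 (124.5 mg/kg), 12.69, 12.65 and 12.77 (248.6 mg/kg), and 12.85, 12.74 and 12.77 (497.3 mg/kg). All arrays of 497.3 mg/kg lay above all controls, and at the other doses the groups overlapped. The slope per dose step was 0.07 ± 0.02 (limma adjusted p = 0.0285), and the call was lost without control replicate 1, 3, 4 or 5 or without replicate 1 of 497.3 mg/kg (adjusted p up to 0.0684), and separately in the fit with the GAPDH covariate. One control array, replicate 2, was set apart at 12.67. Hadha, the partner subunit, lay above all controls at 497.3 mg/kg with 11.96, 11.97 and 11.89, against 11.55 to 11.80 in control, and was not called. Its other probe sets went the other way at that dose, by -0.07 and -0.22, and were not called (limma adjusted p = 0.93 and 0.32 over all probe sets). The acyl-CoA dehydrogenases Acadl, Acadvl and Acads differed by 0.05, 0.09 and -0.10 at 994.6 mg/kg, Hadh and Acaa2 by -0.13 and -0.17, and the auxiliary isomerase Eci1 and reductase Decr1 by -0.09 and 0.08. A dim second Eci1 probe set fell by 0.41 ± 0.11 at this dose (adjusted p = 0.0422 over all probe sets), while the first was not called (adjusted p = 0.798 over all probe sets).

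The electron transfer flavoprotein takes electrons from the acyl-CoA dehydrogenases to the respiratory chain. Etfa, its alpha subunit, had 12.88, 12.54 and 12.62 at 994.6 mg/kg, against 12.27, 12.52, 12.42, 12.23 and 12.36 in control. The groups did not overlap, although replicate 2 lay only just above the highest control. The lower doses held 12.60, 12.44 and 12.37 (62.3 mg/kg), 12.61, 12.49 and 12.49 (124.5 mg/kg), 12.55, 12.45 and 12.60 (248.6 mg/kg), and 12.59, 12.59 and 12.47 (497.3 mg/kg), each overlapping the controls. Etfa rose by 0.32 ± 0.09 at 994.6 mg/kg (SE, limma adjusted p = 0.0455) and by 0.05 ± 0.01 per dose step (adjusted p = 0.022). The call at the dose ended without replicate 1 (0.22, adjusted p = 0.312) or 3, without control replicate 1, 3, 4 or 5, and separately in the fit with the GAPDH covariate (0.30, adjusted p = 0.107). The call by trend ended without control replicate 1 or 4, without replicate 1 of 994.6 mg/kg, and separately in the fit with the GAPDH covariate. The beta subunit Etfb and the oxidoreductase Etfdh were not called, at -0.09 and 0.04.

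Among genes of uptake, activation and thioesterases, 3 of 6 were called at 994.6 mg/kg, against 4.47% of all genes. Acot2, a mitochondrial thioesterase that releases free fatty acids from acyl-CoA and is a known PPAR-alpha target in rodents, had 10.21, 10.70 and 10.62 at 994.6 mg/kg, against 9.82, 10.14, 9.99, 9.45 and 9.81 in control. The lower doses held 10.25, 10.08 and 9.64 (62.3 mg/kg), 10.48, 10.30 and 10.39 (124.5 mg/kg), 10.64, 10.51 and 10.50 (248.6 mg/kg), and 10.72, 10.80 and 10.45 (497.3 mg/kg). All 12 arrays at 124.5 mg/kg and above lay over the highest control, while those of 62.3 mg/kg overlapped the controls. The group means ran 9.84 ± 0.26 (control), 9.99 ± 0.31, 10.39 ± 0.09, 10.55 ± 0.08, 10.66 ± 0.18 and 10.51 ± 0.27 with rising dose (SD). Acot2 rose by 0.81 ± 0.15 at 497.3 mg/kg (SE, limma adjusted p = 0.0138), a 1.76-fold increase, and by 0.67 ± 0.15 at 994.6 mg/kg (adjusted p = 0.0157). Between 994.6 and 497.3 mg/kg it differed by -0.15 ± 0.17 (adjusted p = 0.88). The slope of 0.16 ± 0.03 per dose step (adjusted p = 0.00136) and the F test over all doses (adjusted p = 0.0231) were also called.

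The Acot2 trend was called in 20 of 20 fits that left out 1 array and under the GAPDH covariate, but not over the treated arrays alone (adjusted p = 0.185). The F test lost the call without control replicate 1 or 5 or replicate 2 of 497.3 mg/kg (adjusted p up to 0.0633), and separately in the fit with the GAPDH covariate. The call at 994.6 mg/kg held without replicate 1 (0.82, adjusted p = 0.013) and under the GAPDH covariate (0.67, adjusted p = 0.0494), and ended without replicate 2 or 3 of the dose (adjusted p up to 0.0675). That at 497.3 mg/kg ended without its replicate 1 or 2 (adjusted p up to 0.0848). Of its other probe sets, 1 was called at 497.3 and 994.6 mg/kg (1.06 and 0.85, adjusted p = 0.0161 and 0.0193 over all probe sets) and 1 at neither (0.59 and 0.25, adjusted p = 0.145 and 0.50). Acot1, a cytosolic relative, had a mean of 3.71, near the lowest values on the arrays, and was not called.

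Cd36, a fatty acid translocase of the plasma membrane, had 7.73, 6.96 and 6.94 at 994.6 mg/kg, against 6.33, 5.86, 7.00, 6.14 and 6.12 in control. Replicates 2 and 3 of the dose lay just under control replicate 3, so the groups overlapped. The lower doses ran from 5.99 to 7.09. Cd36 rose by 0.92 ± 0.24 (SE, limma adjusted p = 0.0359), and the call ended without replicate 1 (0.66, adjusted p = 0.271), without control replicate 1, 2, 4 or 5, and separately in the fit with the GAPDH covariate (0.91, adjusted p = 0.0862). Macrophages, endothelial cells and adipocytes also express Cd36. At 994.6 mg/kg 0 of 8 macrophage, 0 of 6 endothelial and 0 of 5 adipocyte markers measured were called, against 4.47% of all genes. Summed macrophage levels (log2) were 13.25 to 13.48, against 12.84 to 13.48 in control. Endothelial levels were 11.86 to 12.35 against 12.04 to 12.29, and adipocyte levels 9.05 to 9.40 against 8.98 to 9.35. The part of such cells in the Cd36 result was not tested.

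Acsl1, the main long-chain acyl-CoA synthetase of liver, had 13.15, 13.45 and 13.46 at 994.6 mg/kg, against 13.68, 13.66, 13.68, 13.58 and 13.73 in control. All arrays of the dose lay below all controls, and those of the lower doses ran from 13.46 to 13.70. Acsl1 fell by 0.31 ± 0.08 (SE, limma adjusted p = 0.029). The call ended without replicate 1 (-0.21, adjusted p = 0.244), without control replicate 1, 3 or 5, with the GAPDH covariate (-0.31, adjusted p = 0.0675) and with the mean of its probe sets. Its other probe sets differed by -0.32 and -0.16 and were not called. The liver fatty acid binding protein Fabp1 and the transporter Slc27a2 differed by -0.12 (adjusted p = 0.35) and 0.06 and were not called.

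**Figure D3:**
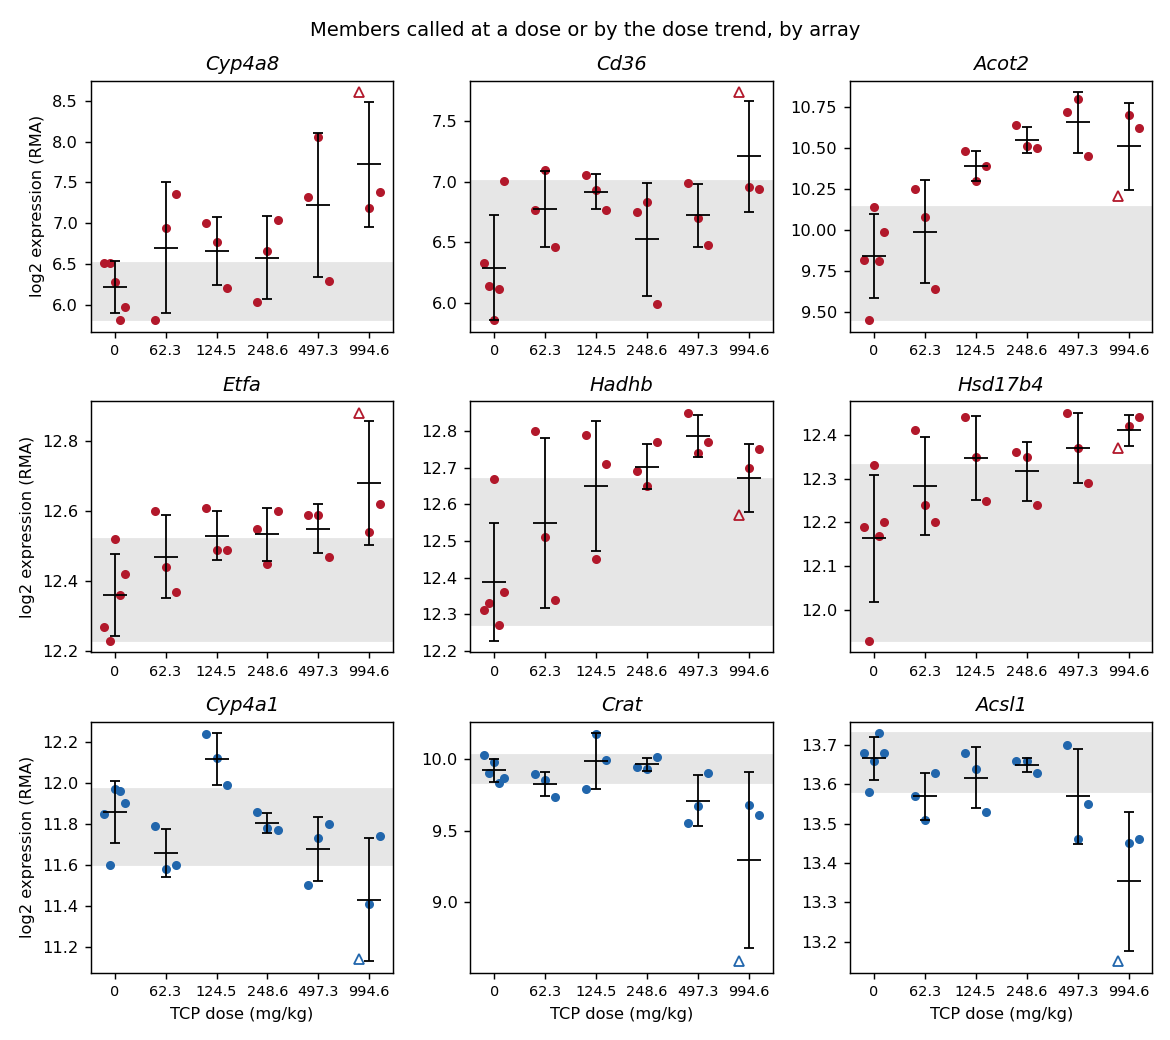
Log2 expression (RMA) by TCP dose (mg/kg) of the 9 members called at a dose or by the dose trend, those with called increases in red and decreases in blue. Points are arrays, the open triangle is replicate 1 of 994.6 mg/kg, bars are mean ± SD and the grey band is the control range. Acot2 lies above the band in all 12 arrays from 124.5 mg/kg up, and in Cyp4a8, Cd36, Etfa, Cyp4a1, Crat and Acsl1 the triangle is the array farthest from the controls at the highest dose.

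None of the 6 other PPAR-alpha targets was called by limma at any dose, by the trend or by the F test, and at 994.6 mg/kg 3 had an unadjusted p under 0.05, as had 18.6% of all genes. Fgf21, a fasting hormone secreted by the liver, had 10.30, 9.74 and 10.06 at 994.6 mg/kg, against 7.86, 8.64, 8.91, 8.01 and 8.22 in control. These groups did not overlap, and the difference of 1.71 ± 0.57 was the largest among members but not called (adjusted p = 0.0925). Single arrays were high at lower doses too, with 9.80 at 62.3 mg/kg, 10.16 at 124.5 mg/kg and 10.80 at 248.6 mg/kg, while the arrays of 497.3 mg/kg ran from 8.29 to 8.58. Pdk4, a kinase that spares glucose by inhibiting pyruvate dehydrogenase, had 9.99, 10.44 and 10.04 at 994.6 mg/kg and 9.66, 10.58 and 9.31 at 497.3 mg/kg, against 10.56, 10.80, 10.62, 10.04 and 10.68 in control. Both doses overlapped the controls, and the differences of -0.39 and -0.69 were not called (adjusted p = 0.40 and 0.20). Angptl4, a secreted lipoprotein lipase inhibitor, had 11.23, 10.85 and 10.81 at 994.6 mg/kg, against 11.57, 11.52, 11.73, 11.23 and 11.46 in control. It was below the lowest control in 10 of the 15 treated arrays, all 3 of the highest dose among them, and the difference of -0.54 ± 0.18 was not called (adjusted p = 0.103). The lipid droplet protein Plin2 (-0.44, adjusted p = 0.0661), the pantetheinase Vnn1 (0.35) and the uncoupling protein Ucp2 (-0.19) were not called either.

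**Figure D4:**
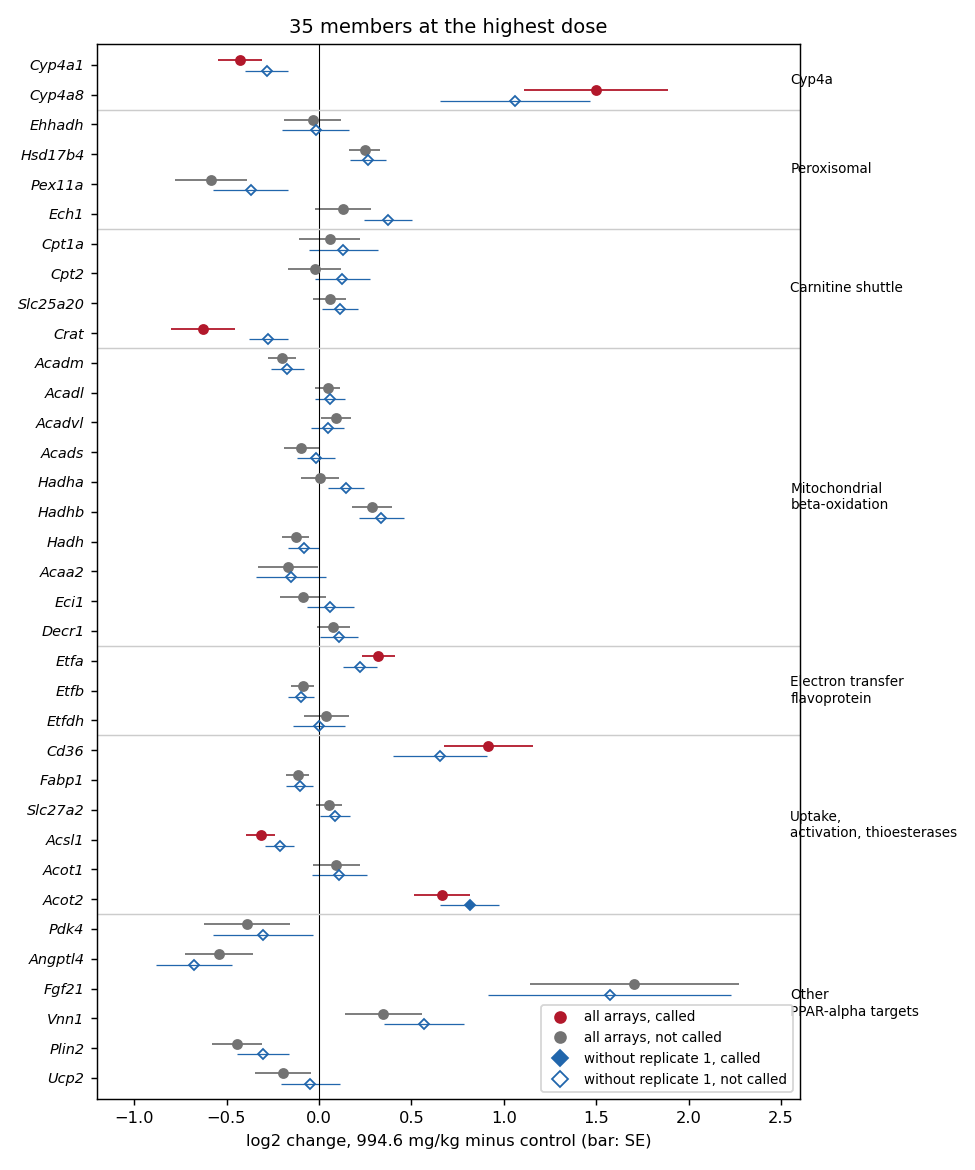
Log2 change at 994.6 mg/kg minus control for the 35 members, by group, with bars of 1 SE. Circles use all arrays (red if called by limma, grey if not), and diamonds leave out replicate 1 of the dose (filled if called, open if not). The circles are called for 7 members and the diamonds for Acot2 alone.

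Peroxisomal, mitochondrial and Cyp4a members were then set beside each other. The median change at 994.6 mg/kg was 0.05 over the 4 peroxisomal members (range -0.58 to 0.25) and 0.004 over the 17 mitochondrial members (range -0.63 to 0.32). The Cyp4a mean was 0.54, of values of -0.43 and 1.50, and the median of all genes was -0.007. Of the 4 peroxisomal members 0 were called and of the 17 mitochondrial 2 (Etfa higher, Crat lower), against 4.47% of all genes. Both Cyp4a genes were called, in opposite directions. Crat, the mitochondrial member at -0.63, is in both organelles. So is Ech1, which was counted as peroxisomal. By array, the mean deviation of the peroxisomal members from the control mean was -0.306, 0.077 and 0.049 at 994.6 mg/kg, against -0.265 to 0.256 in control, and that of the mitochondrial members was -0.143, 0.037 and 0.029, against -0.064 to 0.120 in control. Replicate 1 was the low array in both, and the other arrays of the dose lay within the control range. The classes differ in size and their members were chosen with earlier results known, so no test was made between them.

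The signs of the differences, most of them small and uncalled, were counted by dose. Of the 21 peroxisomal and mitochondrial members together, 12, 19, 18, 14 and 11 were above the control mean at 62.3, 124.5, 248.6, 497.3 and 994.6 mg/kg. Of all genes, 51.3%, 54.4%, 53.5%, 52.2% and 48.4% were above it at the same doses. The medians at 124.5 mg/kg were 0.24 over the peroxisomal and 0.09 over the mitochondrial members, against 0.01 over all genes. Counting members whose 3 treated arrays all lay beyond all 5 controls gave 0 at 62.3 mg/kg, where 2.76% of all genes did so. At 124.5 mg/kg there were 6 (17.1%), all above, against 3.50% of all genes: Cyp4a1, Ech1, Slc25a20, Eci1, Decr1 and Acot2. At 248.6 mg/kg there was 1 (2.86%), Acot2, against 7.32%. At 497.3 mg/kg there were 5 (14.3%), all above, against 10.0%: Hadha, Hadhb, Decr1, Acot2 and Vnn1. At 994.6 mg/kg there were 10 (28.6%), against 14.0%, with Cyp4a8, Hsd17b4, Etfa, Acot2 and Fgf21 above and Pex11a, Crat, Etfb, Acsl1 and Angptl4 below. These comparisons share the control arrays, and members share arrays, so the counts are a description.

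The highest doses were compared with each other directly. Between 994.6 and 497.3 mg/kg 0 members were called by limma, against 0.0211% of all genes, and 7 had an unadjusted p under 0.05, against 7.61% of all genes. Of the 35 members 9 were higher at 994.6 than at 497.3 mg/kg (25.7%, against 46.7% of all genes) and 26 were lower. The median difference was -0.12, against -0.01 over all genes. These signs and medians include replicate 1 of 994.6 mg/kg and are not given without it. The trend over dose steps called 5 members, all higher (Acot2, Cyp4a8, Etfa, Hadhb and Hsd17b4), or 14.3% against 6.47% of all genes called in either direction, 3.90% called higher and 2.57% called lower. Without replicate 1 of 994.6 mg/kg the trend called 3 members, Acot2, Hadhb and Vnn1, against 4.16% of all genes. The F test called 1 member, Acot2, against 0.816% of all genes.

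The receptor, its partners and further genes of the pathway were listed by name, and 123 of the 138 listed were measured. At 994.6 mg/kg 2 of the 123 were called higher and 5 lower, where 2.50% and 1.96% of all genes were, and their median change was -0.03. Among 8 other Cyp4 genes measured, Cyp4f6, a hydroxylase that acts on leukotrienes and other eicosanoids, fell by 0.91 ± 0.11 (SE, limma adjusted p = 0.0001), to 10.79 ± 0.22 at 994.6 mg/kg, against 11.70 ± 0.09 in control (SD, n = 3 and 5). Its call at this dose held in all 8 fits that left out 1 of the arrays compared and in all 9 other settings tried, the GAPDH covariate among them (adjusted p up to 0.0026). Cyp4f1 fell by 0.26 (adjusted p = 0.0287) and lost the call without replicate 1, without control replicate 1, 2, 3 or 5, and in the fit with the GAPDH covariate. Among 32 other peroxisomal genes, Crot, the carnitine octanoyltransferase that exports shortened acyl groups, fell by 0.73 ± 0.17 (adjusted p = 0.0186), and lost the call without replicate 1 (adjusted p = 0.166), and separately in the fit with the GAPDH covariate. The trend called 12 of the 123 pathway genes, 7 higher and 5 lower, against 6.47% of all genes. Besides Crot, these held the peroxisomal membrane and import genes Pex2, Pex26 and Slc25a17, higher, and the acyl-CoA transporter Abcd3, lower. These 4 lost the call by trend without replicate 1 of 994.6 mg/kg (adjusted p = 0.0907, 0.0764, 0.141 and 0.0802), and kept it in 16, 14, 11 and 18 of the 20 fits that left out 1 array.

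Among 27 ketone body and other mitochondrial genes, Acad9, an acyl-CoA dehydrogenase that is also an assembly factor of respiratory complex I, rose by 0.42 ± 0.09 at 994.6 mg/kg (SE, limma adjusted p = 0.00806), to 10.80 ± 0.08, against 10.38 ± 0.08 in control (SD, n = 3 and 5). It kept the call with the GAPDH covariate and lost it without replicate 1 (adjusted p = 0.0708). Its slope was 0.09 ± 0.01 per dose step (adjusted p = 0.000647), called in 20 of 20 fits that left out 1 array. Bdh1, which interconverts the main ketone bodies, fell by 0.55 ± 0.14 (adjusted p = 0.027) and lost the call without replicate 1 or control replicate 3 or 5, and in the fit with the GAPDH covariate. Bdh1 also lost it with the mean of its probe sets, with the replicate block and with only the groups compared in the fit. Acot9, a mitochondrial thioesterase, was called higher by the trend. Among 42 lipid handling genes, Abhd5, the activator of the triglyceride lipase of lipid droplets, rose by 0.59 ± 0.16 (adjusted p = 0.0448), with a call that held in 1 of 8 fits that left out an array, and the trend called Plin3 higher, in 20 of 20 fits that left out 1 array, and Acsl5 lower, in 6 of 20. Of the 14 genes of the receptor and its partners, Ppard, a related receptor, fell by 0.52 ± 0.12 (adjusted p = 0.017) and lost the call without replicate 1 (adjusted p = 0.137). The coactivator and phosphatase Lpin1 was called lower by the trend (-0.37 ± 0.10 per dose step, adjusted p = 0.0252), and lost the call without replicate 2 or 3 of 994.6 mg/kg or with the GAPDH covariate. Ppara itself (-0.26, adjusted p = 0.39) and Cyp4a3 (-0.39, adjusted p = 0.13), named outside the rule after their values were seen, were not called at 994.6 mg/kg.

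The tissue label was checked against cell type markers. Of 9 hepatocyte markers measured 0 were called at 994.6 mg/kg, against 4.47% of all genes. Their summed level (log2) was 17.62 to 17.67, against 17.66 to 17.70 in control. Of 5 cholangiocyte markers 1 was called, Epcam, higher. Their summed level (log2) was 10.17 to 10.83 at 497.3 mg/kg and 10.15 to 10.34 at 994.6 mg/kg, against 9.48 to 9.84 in control. The median change of this list was 0.71 at 497.3 mg/kg and 0.24 at 994.6 mg/kg. Of 8 stellate markers 1 was called, Rgs5, higher, while the median of the list was -0.08. Of 5 red cell genes Hbb, Alas2 and Ahsp were called lower. Without replicate 1 of 994.6 mg/kg Epcam (limma adjusted p = 0.0498), Hbb and Alas2 were still called. Rgs5 (adjusted p = 0.114) and Ahsp (adjusted p = 0.086) were not. Epcam lost the call in the fit with the replicate block (adjusted p = 0.0646), and Rgs5 in that fit and with the GAPDH covariate. Their part in the members' results was not tested.

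Promoters were read to see whether the DR1 element bound by PPAR-alpha lay near the starts of members. RefSeq windows on the GRCr8 build, each 250 bases before to 50 after 1 annotated transcript start, were found for 30 of the 36 members, and not used here for Cyp4a1, Ech1, Acadl, Acaa2, Decr1 and Vnn1. In 18 of the 30 the 250 bases lay outside the annotated gene, and in 12, Fabp1, Acadvl and Acot2 among them, they lay at least partly within it, behind another annotated start. The motif AGGTCANAGGTCA was searched on both strands, and it holds the hexamer AGGTCA, so the searches overlap. With at most 1 mismatch in its 12 fixed bases it was found in 2 of 30 member windows (6.7%), Fabp1 and Acadvl, and in 0.46% of 27457 windows of all genes. With at most 2 mismatches it was found in 6 (20%), with Crat, Etfa, Slc27a2 and Slc25a20 added, and in 3.71% of all windows. An exact match was found in 0 member windows and in 16 of all windows. The hexamer alone was found in 6 of 30 member windows (20%) and in 15.7% of all windows. The 30 bases around the site are shown for the closest matches (Fabp1 and Acadvl), and the 250 bases before the start for the called members with a match (Crat and Etfa). Each runs 5′ to 3′ on the gene's strand, with the DR1 match in capitals, and capitals in Fabp1 and Etfa show the motif's opposite strand.
Fabp1, chr4:104749255-104749284, plus strand: acaatcacTGACCTATGGCCTatatttgag
Acadvl, chr10:55236706-55236735, minus strand: gagacgggagaagAGGTCAGTGGTCAaggc
Crat, chr3:34087100-34087349, minus strand: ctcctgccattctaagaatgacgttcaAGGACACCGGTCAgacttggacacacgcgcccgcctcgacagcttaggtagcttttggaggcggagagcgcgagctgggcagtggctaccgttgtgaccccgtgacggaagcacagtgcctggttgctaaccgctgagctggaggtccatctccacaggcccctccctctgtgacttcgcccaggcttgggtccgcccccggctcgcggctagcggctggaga
Etfa, chr8:64787966-64788215, minus strand: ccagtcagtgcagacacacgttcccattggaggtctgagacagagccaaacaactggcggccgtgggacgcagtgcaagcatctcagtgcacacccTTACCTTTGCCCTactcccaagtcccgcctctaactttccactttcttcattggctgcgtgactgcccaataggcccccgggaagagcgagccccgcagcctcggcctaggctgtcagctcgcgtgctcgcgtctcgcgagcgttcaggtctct
Fabp1 and Acadvl, whose windows lay at least partly within the gene, differed by -0.12 (limma adjusted p = 0.35) and 0.09 (adjusted p = 0.60) at 994.6 mg/kg. Of the other members with a match, Crat was called lower and Etfa higher, and Slc27a2 and Slc25a20 were not called. Whether a match goes with a change was not tested. The Crat match starts at -223, the Etfa match at -154, the Fabp1 match at -77 and the Acadvl match at -17, counted from the transcript start of the window. Cyp4a8 and Acot2 had none within 2 mismatches in this window. A match is a description of these letters, not a measured binding site.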

How the data were processed

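Each of 20 rat livers was hybridized to its own single-colour Affymetrix array. The authors deposited log2 signals, which per the submitters' processing notes came from RMA (version and arrays processed jointly: not given in the sources used here). RMA equalizes the distributions of arrays by quantiles, so changes are measured against the typical gene. Precision is limited by the number of arrays. Of 31099 probe sets, 57 were controls, 20826 had 1 gene symbol in the platform annotation, 436 had several and 9780 were unnamed. Current symbols were looked up by gene identifier (20758 probe sets) or accession (2), and 66 kept the older symbol. The probe set with the highest mean represented each of 14217 genes (4525 had more than 1), with no filter on low values.

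The main model, in limma 3.58.1 under R 4.3.3, had a mean for each dose group over all 20 arrays (lmFit, contrasts.fit, eBayes; 14 residual and 4.77 prior degrees of freedom), and Benjamini-Hochberg adjusted p-values are over all genes within a comparison. The trend is the slope on dose step, from 0 for control to 5. The fit was tested on simulated data with known changes. The members, their groups, the pathway and marker lists and the tests were chosen with earlier results of these data known, so counts and medians over them are descriptions. Members called, both Cyp4a genes and Pdk4, Angptl4, Cpt1a, Ehhadh and Pex11a are described by array, and other pathway genes are named where called. Alternatives covered the probe set rule, gene filter, scaling, the eBayes settings, weights per array, a replicate block, the GAPDH covariate, the dose scale, the arrays in the fit and each array left out. The labels name no batch, and replicate numbers were taken as names only. Deviations of same-numbered arrays in different groups correlated between -0.382 and 0.366, which does not decide whether the numbers stand for a batch. Promoter sequences are RefSeq's, on GRCr8.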

Additional observations from a re-analysis of the deposited data

Results flagged for a closer look

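For 35 members, the 5 control arrays were checked for an array set apart from the others, by a gap to its nearest neighbour above 0.71 of the control range. Chance gives about 1 such array in 20 genes. In 5 members 1 control array was set apart. Ehhadh had 11.13 in control replicate 4, below the others at 11.79 to 11.96. Hadh had 12.99 in the same array, below the others at 13.23 to 13.27. Hadhb had 12.67 in control replicate 2, above the others at 12.27 to 12.36, and Acot1 had 3.90 in that array, above the others at 3.40 to 3.52. Eci1 had 12.26 in control replicate 3, below the others at 12.43 to 12.48.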

How the results depend on the processing

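The count of members called was 0 at 62.3 and 124.5 mg/kg in every setting. With array weights 1 member was called at 248.6 mg/kg (Acot2), 2 at 497.3 mg/kg (Acot2 and Hadhb), 14 at 994.6 mg/kg (9 higher, 5 lower) and 6 by the F test, and the Cyp4a mean was 0.30. Of all 14217 genes, array weights called 281 at 497.3 mg/kg and 2841 at 994.6 mg/kg. The all-gene counts with array weights at 248.6 mg/kg and by the F test are not given here. With a replicate block 0 members were called at 497.3 mg/kg, 0 at 994.6 mg/kg, 0 by the F test and 2 by the trend (Acot2 higher, Acadm lower). Of all genes, the block fit called 38 at 497.3 mg/kg, 310 at 994.6 mg/kg and 632 by the trend. The labels name no batch behind the replicate numbers, and 7 of 18 arrays correlated best with an array of their own number. The count expected by chance was not worked out, so these values do not decide whether the block belongs in the model. With the GAPDH covariate 1 member was called at 994.6 mg/kg, 1 by the trend (Acot2 in both) and 0 by the F test. The same fit called 450 of all genes at 994.6 mg/kg and 828 by the trend. With only the groups compared in the fit, 2 were called at 994.6 mg/kg (Cyp4a8 and Fgf21) and 1 between 994.6 and 497.3 mg/kg (Fgf21). Of all genes, 497 were then called at 994.6 mg/kg, and the all-gene count between the highest doses is not given here. The trend over treated arrays alone called 0 members and 31 of all genes. Leaving out the lowest 50% of genes removed Cyp4a8, Cd36, Acot1 and Ucp2. Without Cyp4a8 the Cyp4a mean became the value of Cyp4a1, -0.43. Leaving out 1 array at a time gave 0 calls at 248.6 mg/kg, 0 to 2 at 497.3 mg/kg, 1 to 6 at 994.6 mg/kg, 0 between the highest doses, 2 to 6 by the trend and 0 to 2 by the F test. It gave medians of -0.03 to 0.12 for peroxisomal and -0.08 to 0.06 for mitochondrial members at 994.6 mg/kg, and a Cyp4a mean of 0.39 to 0.68. The trend on dose in mg/kg lost the calls of Hsd17b4 and Hadhb, and median centring that of Hsd17b4. No change called in the main fit reversed its direction. Small uncalled differences at 994.6 mg/kg could reverse. Cpt2 went from -0.02 to 0.12 without replicate 1 of the dose, and Ehhadh from -0.03 to 0.11 with the GAPDH covariate. Of all genes, the main fit called 104 at 497.3 mg/kg, 635 at 994.6 mg/kg and 920 by the trend. At 994.6 mg/kg quantile normalization called 1000. Leaving out 1 of the arrays compared left 173 (without replicate 1 of that dose) to 684 of all genes called at 994.6 mg/kg, and 38 to 73 at 497.3 mg/kg. Leaving out any 1 array left 592 to 1108 of all genes called by the trend. The all-gene counts by the F test in these fits are not given here. Apart from the removal of Cyp4a8, the cause of these shifts was not tested. Signal over background was not analysed here.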
